A study of Macaca mulatta with 6 samples.

Results

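Carbonic anhydrases are zinc enzymes that convert carbon dioxide and water into bicarbonate and a proton, and back. In airways they feed bicarbonate to the transporters of glands and surface epithelium, which sets the pH of the surface liquid and helps secreted mucins to unfold. Family members differ in place: some act in the cytosol, some at the outer face of the cell membrane and 1 of those described here, CA6, is secreted. CA8 belongs to the family by sequence but lacks the activity.

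The genes described are the 10 carbonic anhydrases CA1, CA2, CA3, CA4, CA6, CA8, CA9, CA12, CA13 and CA14, taken by symbol from a count table of 28536 genes. All 10 were in the table. Of these, 8 had enough reads to be tested, among 18676 tested genes, and CA1 and CA3 did not. Another 5 genes of the family, CA5A, CA5B, CA7, CA10 and CA11, are given for comparison.

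The data are RNA sequencing libraries from tracheal tissue of rhesus monkeys (Macaca mulatta). In 1 group, of 3 libraries, the tracheal lubricant carried Oxy@Lipo/Gel and the model was endotracheal intubation in general anaesthesia. The other 3 were controls given normal saline. Whether the controls were intubated or anaesthetised is not said in the labels, nor are age or sex. Separate animals are not stated for the replicates, so the spread that p-values rest on may not be that between animals. The label for tissue names a lubricated catheter and the extraction text names cell lines, while the treatment text names trachea. The comparison asks how the tissue differs between the modified lubricant and saline.

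The libraries held 20089109 to 23405294 counts in the Oxy@Lipo/Gel group and 17097177 to 22194965 counts in the control group. Markers of an airway wall were present in each: 8 markers of multiciliated cells summed to between 2151 and 4699 CPM (counts scaled to library size) in the Oxy@Lipo/Gel libraries and between 912 and 5097 CPM in the controls. Some libraries stood apart in their cell type markers. Control replicate 3 held thyroid transcripts, with TG, which encodes thyroglobulin, at 4698 CPM, against 4.26 to 6.79 CPM in the other 5 libraries. Control replicate 2 had the lowest multiciliated sum of the 6. Smooth muscle markers, 9 genes, summed to 15487 and 21080 CPM in Oxy@Lipo/Gel replicates 2 and 3, against 1994 CPM in replicate 1 of that group and 953 to 2767 CPM in the controls. In such bulk tissue, fewer cells of a type and less RNA per cell cannot be told apart.

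CA12, a transmembrane enzyme with its active site outside the cell, was the most abundant carbonic anhydrase per gene length in 5 of the 6 libraries. On the FPKM scale (fragments per kilobase of gene, scaled to library size, the authors' values) CA12 took 59.8% to 66.8% of the summed level of the 10 genes in the Oxy@Lipo/Gel libraries, and 32.7% to 81.1% in the control libraries. The exception was control replicate 3, where CA4 took 42.6%. The summed level itself was 48.4 ± 10.8 FPKM in the Oxy@Lipo/Gel group and 45.8 ± 8.29 FPKM in the control group (SD, n = 3 each), with ranges that overlapped. What differed was the order below CA12. CA8 had rank 2 and CA2 rank 3 in every Oxy@Lipo/Gel library, whereas CA8 ranked between 2 and 4 and CA2 between 6 and 7 in the controls. CA8 held 12.5% to 23.3% of the sum in the Oxy@Lipo/Gel libraries and 2.40% to 11.3% in the controls. CA2 held 5.77% to 10.0% and 0.466% to 1.97% of the sum in the same order of groups, so that neither gene's shares overlapped. The shares of CA13 and CA4 did not overlap either. CA13 held 0.125% to 0.272% in the Oxy@Lipo/Gel libraries and 0.0288% to 0.0587% in the controls. CA4 went the other way, with 0.692% to 3.06% in the Oxy@Lipo/Gel libraries and 3.48% to 42.6% in the controls.

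**Figure D1:**
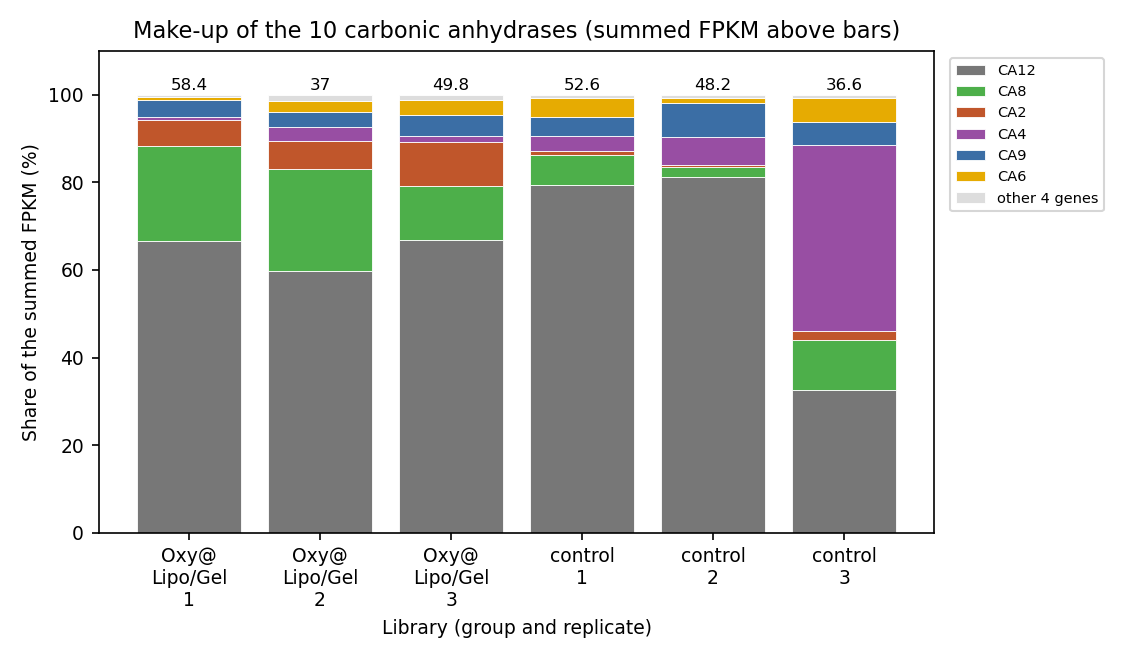
Share of each gene (y axis, % of the summed FPKM of the 10 carbonic anhydrases) in each library (x axis, group and replicate), with the summed FPKM printed above each bar. CA12 is the largest share in every library but control replicate 3, where CA4 holds 42.6%. The shares of CA8 and CA2 are larger, and that of CA4 smaller, in the 3 Oxy@Lipo/Gel libraries than in any control.

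Across the family, the test called CA2 higher in the Oxy@Lipo/Gel group and no carbonic anhydrase lower. Calls are at an adjusted p under 0.05 by edgeR's quasi-likelihood test with Benjamini-Hochberg adjustment over all tested genes. Of the 8 tested genes 1 was called higher, where 0.851% of all tested genes were, and 0 were called lower, where 0.685% of all tested genes were. At an unadjusted p under 0.05 edgeR counted 4 of the 8, which are CA2, CA13, CA8 and CA4, and 4356 of all 18676. DESeq2 called CA2, CA13 and CA8 higher and CA4 lower, but it also called 13.3% of all tested genes. In CPM, 3 of the 8 lay higher in every Oxy@Lipo/Gel library than in any control (12.2% of all tested genes) and 1 lay lower in the same sense (17.7% of all tested genes). CA13 is counted at the unadjusted p, by DESeq2 and in CPM. It met the count filter in 3 Oxy@Lipo/Gel libraries and 0 controls, so it was among the 8 only through the group where it was high. The median log2 fold change of the 8 was -0.0018 and that of all tested genes -0.04, with 4 of the 8 above 0 and 4 below.

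**Figure D2:**
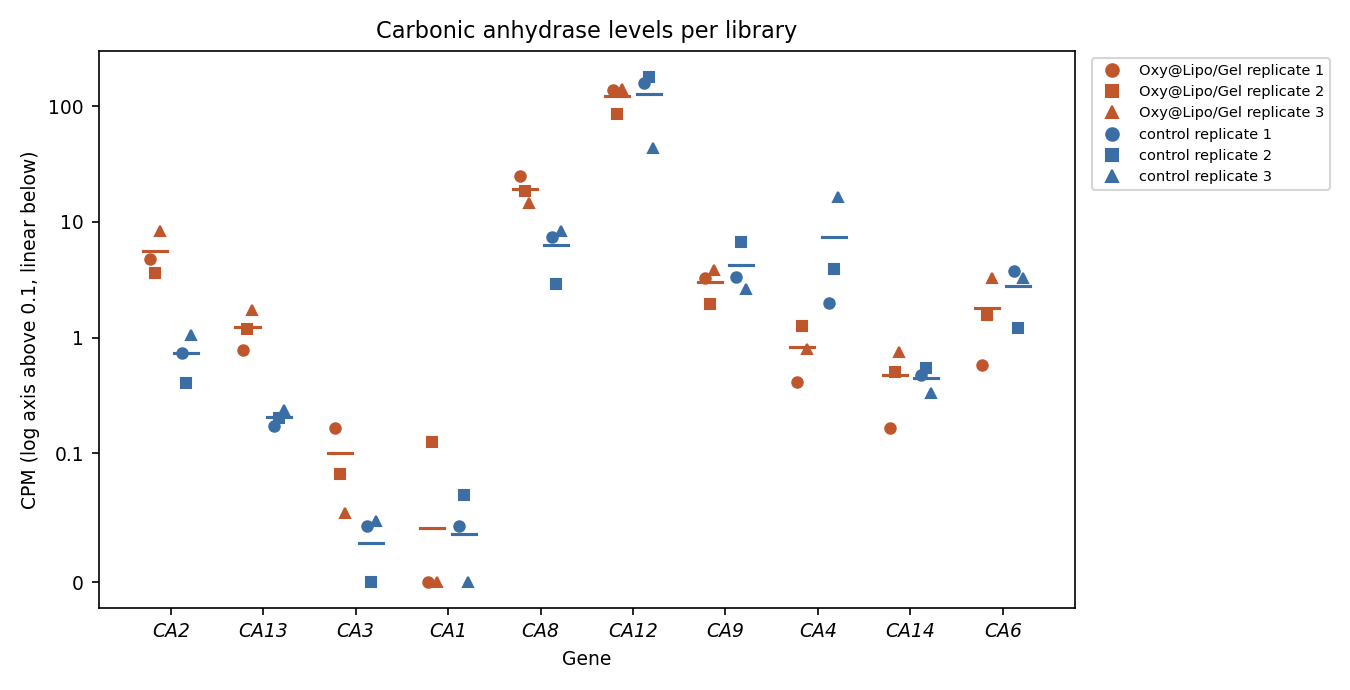
Level of each carbonic anhydrase in CPM (y axis, logarithmic above 0.1 CPM and linear below) by gene (x axis), with 1 point per library, a marker shape per replicate number, and a bar at the mean of each group. The points of CA2, CA13 and CA8 lie higher, and those of CA4 lower, in all Oxy@Lipo/Gel libraries than in any control, and CA12, CA9, CA14 and CA6 overlap.

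CA2 is the fast cytosolic enzyme found in serous gland cells, kidney, red cells and osteoclasts. It measured 4.77, 3.63 and 8.36 CPM in Oxy@Lipo/Gel replicates 1, 2 and 3, against 0.740, 0.407 and 1.05 CPM in control replicates 1, 2 and 3. The lowest Oxy@Lipo/Gel library lay well above the highest control, and replicate 3 was the highest within each group. The means were 5.59 ± 2.47 CPM and 0.731 ± 0.320 CPM in the same order of groups (SD, n = 3 each). On the log2 scale CA2 rose by 2.90 ± 0.49 (SE; edgeR adjusted p = 0.0479), which is 7.46-fold. The call stood close to the threshold: the adjusted p was 0.0513 with median-of-ratios size factors, and from 0.0531 without Oxy@Lipo/Gel replicate 1 to 0.176 without control replicate 1. The log2 fold change ran from 2.49 without Oxy@Lipo/Gel replicate 3 to 3.23 without control replicate 3. On the log2(FPKM + 1) scale, which understates changes of low genes, it was 1.60 (limma adjusted p = 0.0502), and with the replicate number as a block 2.92 (edgeR adjusted p = 0.137).

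Serous gland markers, as a sum, moved with CA2 between groups. Among the 12 such markers found, 4 were called higher (LTF, PRR4, DMBT1 and ODAM) and 0 lower. ODAM had 0, 0 and 1 counts in control replicates 1, 2 and 3, so it was tested only through the group where it was high. The 12 markers summed to 9639 to 31374 CPM in the Oxy@Lipo/Gel libraries and 828 to 1902 CPM in the controls, and none was at 0 in all libraries. In the Oxy@Lipo/Gel libraries most of the sum came from LYZ and DMBT1. LYZ measured 8501, 5887 and 15849 CPM in replicates 1, 2 and 3 of that group, and DMBT1 3185, 2412 and 12293 CPM. LYZ did not pass (edgeR adjusted p = 0.0525). Oxy@Lipo/Gel replicate 3 was highest, and control replicate 2 lowest, both for CA2 and for this sum. The highest control differed: replicate 3 for CA2 and replicate 1 for the sum, at 1902 CPM against 1501 CPM in replicate 3. Of the 12 serous markers, 11 had fold changes above 0, but SLPI and BPIFA1 had log2 fold changes of only -0.049 and 0.11. Mucous gland and goblet cell markers were 8 genes, of which 1 was called higher (BPIFB1). They summed to 2434 to 2903 CPM in the Oxy@Lipo/Gel libraries and 223 to 879 CPM in the controls. Of these 8, 6 had fold changes above 0, while TFF3 and SPDEF had log2 fold changes of -1.19 and -0.37. The 8 osteoclast markers summed to 202 to 272 CPM in the Oxy@Lipo/Gel libraries and 239 to 310 CPM in the controls, with overlap. Of the 4 tested, edgeR called MMP9 higher, and DESeq2 called MMP9 and CTSK higher and ACP5 lower. MMP9, with 7, 6 and 8 counts in control replicates 1, 2 and 3, was likewise tested only through the group where it was high. CTSK measured 117, 110 and 90.7 CPM in the Oxy@Lipo/Gel libraries, against 69.8, 71.3 and 63.2 CPM in the controls. ACP5 measured 59.9, 33.9 and 35.0 CPM in the Oxy@Lipo/Gel libraries, against 111, 199 and 62.5 CPM in the controls. Neither overlapped between groups, and they moved in opposite directions. OCSTAMP and DCSTAMP, which act in osteoclast fusion, and CALCR, the calcitonin receptor, were at 0.29 CPM or less. The part of gland or osteoclast content in the CA2 difference was not tested.

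The genes most like CA2 across the 6 libraries were RARRES1, BHLHA15 and MPO. Likeness was the root mean square difference of log2 CPM, each gene centred on its own mean, over 13229 named genes with a mean of at least 1 log2 CPM. It was 0.28 for RARRES1, a gene induced by retinoids, 0.43 for BHLHA15, a transcription factor of cells that secrete by exocytosis, and 0.44 for MPO, a peroxidase. RARRES1 measured 144, 178 and 260 CPM in the Oxy@Lipo/Gel libraries, against 32.0, 13.5 and 34.1 CPM in the controls. BHLHA15 measured 7.97, 8.01 and 20.1 CPM in the Oxy@Lipo/Gel libraries, against 1.13, 1.70 and 1.76 CPM in the controls. MPO is best known from neutrophil granules. The 6 neutrophil markers found summed to 512 to 685 CPM in the Oxy@Lipo/Gel libraries and 175 to 730 CPM in the controls, with overlap. All 4 that were tested had fold changes above 0, and edgeR called only MPO, while DESeq2 also called S100A9 higher. CSF3R, a receptor of granulocytes, had the highest level of that list, at 394 to 577 CPM in the Oxy@Lipo/Gel libraries and 157 to 708 CPM in the controls, and ELANE, another granule gene, was at 0.38 CPM or less in every library. The part of neutrophils in the MPO difference was not tested. These 3 genes show the same step between groups as CA2, and they were picked for it.

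CA13, a cytosolic enzyme, was lower in level than CA2 and had similar proportions between groups. Its counts were 19, 28 and 32 in Oxy@Lipo/Gel replicates 1, 2 and 3, against 4, 3 and 5 in control replicates 1, 2 and 3. That is 0.789, 1.18 and 1.72 CPM against 0.174, 0.204 and 0.238 CPM, with no overlap and a narrow spread among controls. Its log2 fold change of 2.54 ± 0.44 did not pass (SE; edgeR adjusted p = 0.0521). CA13 met the count filter in 3 Oxy@Lipo/Gel libraries and 0 controls, so its place among the tested genes rests on the group where it was high. It passed without Oxy@Lipo/Gel replicate 1 (adjusted p = 0.0383) and not without any other single library, the highest adjusted p being 0.224 without Oxy@Lipo/Gel replicate 2. Per gene length the level was 0.103 ± 0.0305 FPKM in the Oxy@Lipo/Gel group and 0.0171 ± 0.00376 FPKM in the control group (SD, n = 3 each), over a gene model of 11879 bases against 1560 bases for CA2.

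CA3 and CA1, the other cytosolic enzymes, were close to the limit of detection. CA3, abundant in skeletal muscle and fat, had 4, 2 and 1 counts in the Oxy@Lipo/Gel libraries against 1, 0 and 1 in the controls. The ratio of its summed counts was 3.09, with an exact 95% interval of 0.589 to 30.5 that covers counting error only and includes no difference. CA1, an enzyme of red cells, had 3 counts over the Oxy@Lipo/Gel group, all in replicate 2, and 2 over the control group. Its ratio was 1.33 with an interval of 0.152 to 15.9. Neither difference was detectable at this depth, where 3 counts correspond to 0.125 to 0.161 CPM in the Oxy@Lipo/Gel libraries and 0.131 to 0.204 CPM in the controls.

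The red cell markers that were matched and those of skeletal muscle were low, and those of fat were not. Of 12 erythroid markers listed, 7 were matched by symbol. The haemoglobin genes HBB, HBA1, HBA2 and HBA were not matched by symbol, nor was GYPB, so red cell content is not settled by this sum. The 7 summed to 1.98 to 2.53 CPM in the Oxy@Lipo/Gel libraries and 2.65 to 6.99 CPM in the controls. ALAS2, the first enzyme of haem synthesis in red cell precursors, was at 0 in all 3 Oxy@Lipo/Gel libraries and at 0.14 CPM or less in the controls. Skeletal muscle markers, 12 genes, summed to 54.6 to 60.0 CPM in the Oxy@Lipo/Gel libraries and 60.6 to 70.1 CPM in the controls. Fat cell markers, 10 genes, ranged from 120 to 660 CPM in the Oxy@Lipo/Gel libraries and from 70.3 to 736 CPM in the controls.

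In the RefSeq table of the assembly T2T-MMU8v2.0, used here for names and neighbours only, CA13, CA1, CA3 and CA2 follow each other in this order, with unnamed LOC identifiers between some of them. CA13 and CA2, at the ends of the row, had the values above, and CA1 and CA3 between them had 5 and 9 counts in all. Unnamed identifiers overlap CA3, CA6, CA14, CA5A, CA5B, CA7 and CA11 in that table, BANP overlaps CA5A and CLTRN overlaps CA5B. The identifiers that overlap CA3, CA6 and CA14 there are not in the count table under these names. Counts of the overlapped genes are uncertain, since the sources used here do not say whether counting used the strand.

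CA8 is a family protein without enzyme activity, known from mouse Purkinje neurons, where it binds the inositol trisphosphate receptor. It measured 24.9, 18.5 and 14.5 CPM in Oxy@Lipo/Gel replicates 1, 2 and 3, against 7.44, 2.92 and 8.37 CPM in control replicates 1, 2 and 3. The groups did not overlap, and control replicate 2 was the lowest of the 6. Its log2 fold change was 1.62 ± 0.42, or 3.07-fold, and it did not pass (SE; edgeR adjusted p = 0.108). The adjusted p lay between 0.0927 and 0.337 with 1 library left out, and the log2 fold change between 1.28 without control replicate 2 and 1.87 without control replicate 3.

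Multiciliated markers had the order of CA8 within both groups. These 8 genes summed to 4699, 4166 and 2151 CPM in Oxy@Lipo/Gel replicates 1, 2 and 3, against 4144, 912 and 5097 CPM in control replicates 1, 2 and 3. Their groups overlapped, unlike those of CA8. Cartilage markers had the order of CA8 within the Oxy@Lipo/Gel group, replicate 1 highest and replicate 3 lowest. The 13 chondrocyte markers summed to 1014, 787 and 403 CPM in Oxy@Lipo/Gel replicates 1, 2 and 3, against 89.5, 110 and 323 CPM in control replicates 1, 2 and 3. Of these, 3 were called higher (COL11A1, HAPLN1 and CNMD) and 0 lower. In the controls the order differed: CA8 was lowest in control replicate 2 and the chondrocyte sum in control replicate 1. The part of ciliated epithelium or cartilage in the CA8 values was not tested. These lists were picked with their values in view.

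CA12 did not differ between groups beyond its spread. Inherited loss of this enzyme in humans gives salt wasting and, in some, airway disease. It measured 138, 85.2 and 140 CPM in Oxy@Lipo/Gel replicates 1, 2 and 3, against 157, 177 and 43.4 CPM in control replicates 1, 2 and 3. Control replicate 3 was the lowest of all 6, and control replicates 1 and 2 the highest. Its log2 fold change was -0.061 ± 0.51 (SE, with an edgeR adjusted p = 0.954), and the sign turned with the library left out, from -0.48 without control replicate 3 to 0.26 without control replicate 2. Markers of basal and squamous epithelium lay in nearly the same order of libraries. The 10 markers summed to 3854, 1635 and 2856 CPM in Oxy@Lipo/Gel replicates 1, 2 and 3, against 6939, 11953 and 2165 CPM in control replicates 1, 2 and 3. Within each group the library lowest in CA12 was the lowest in this sum, and the highest control was also the same. The part of epithelial content in the level of CA12 was not tested.

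CA9, a transmembrane enzyme induced by hypoxia through HIF-1, measured 3.28, 1.94 and 3.86 CPM in Oxy@Lipo/Gel replicates 1, 2 and 3, against 3.35, 6.65 and 2.62 CPM in control replicates 1, 2 and 3. Control replicate 2 stood above the rest, and the other 5 libraries overlapped. On the log2 scale the difference was -0.47 ± 0.45 (SE; edgeR adjusted p = 0.564), and 0.013 without control replicate 2. CA9 overlaps ARHGEF39 in the reference table, so the counts of both are uncertain if strand was not used. For ARHGEF39 the log2 difference was 0.27 ± 0.27 (SE; edgeR adjusted p = 0.581).

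CA4, an enzyme anchored to the outer membrane of capillary endothelium and several epithelia, was the carbonic anhydrase with the lowest fold change. It measured 0.415, 1.26 and 0.804 CPM in Oxy@Lipo/Gel replicates 1, 2 and 3, against 2.00, 3.94 and 16.5 CPM in control replicates 1, 2 and 3. The groups did not overlap, but control replicate 3 stood far above the other controls. Its log2 fold change of -3.17 ± 0.89 did not pass (SE; edgeR adjusted p = 0.120). Without control replicate 3 it was -1.83, with an adjusted p of 0.141.

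Control replicate 3 is the library with thyroid transcripts. The 7 thyroid markers summed to 31.8 to 36.0 CPM in the Oxy@Lipo/Gel libraries, against 17.3, 16.3 and 5665 CPM in control replicates 1, 2 and 3. Capillary markers, 9 endothelial genes, summed to 175, 512 and 568 CPM in Oxy@Lipo/Gel replicates 1, 2 and 3, against 278, 281 and 631 CPM in control replicates 1, 2 and 3. The groups overlapped in this sum, its order within the controls was that of CA4, and Oxy@Lipo/Gel replicate 1 and control replicate 3 were the lowest and the highest of the 6 in both. Of the 9 markers edgeR called 0 (2 at an unadjusted p under 0.05), and DESeq2 called 1, FCN3, lower. FCN3 measured 13.3, 16.2 and 13.7 CPM in the Oxy@Lipo/Gel libraries, against 19.2, 22.4 and 27.4 CPM in the controls, with no overlap. KDR, the other gene at an unadjusted edgeR p under 0.05, went the other way. It measured 23.7, 47.3 and 43.3 CPM in the Oxy@Lipo/Gel libraries, against 21.5, 8.35 and 21.2 CPM in the controls, with no overlap. Of the 9 markers, 5 had fold changes above 0. The part of thyroid tissue or of capillaries in the CA4 values was not tested.

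**Figure D3:**
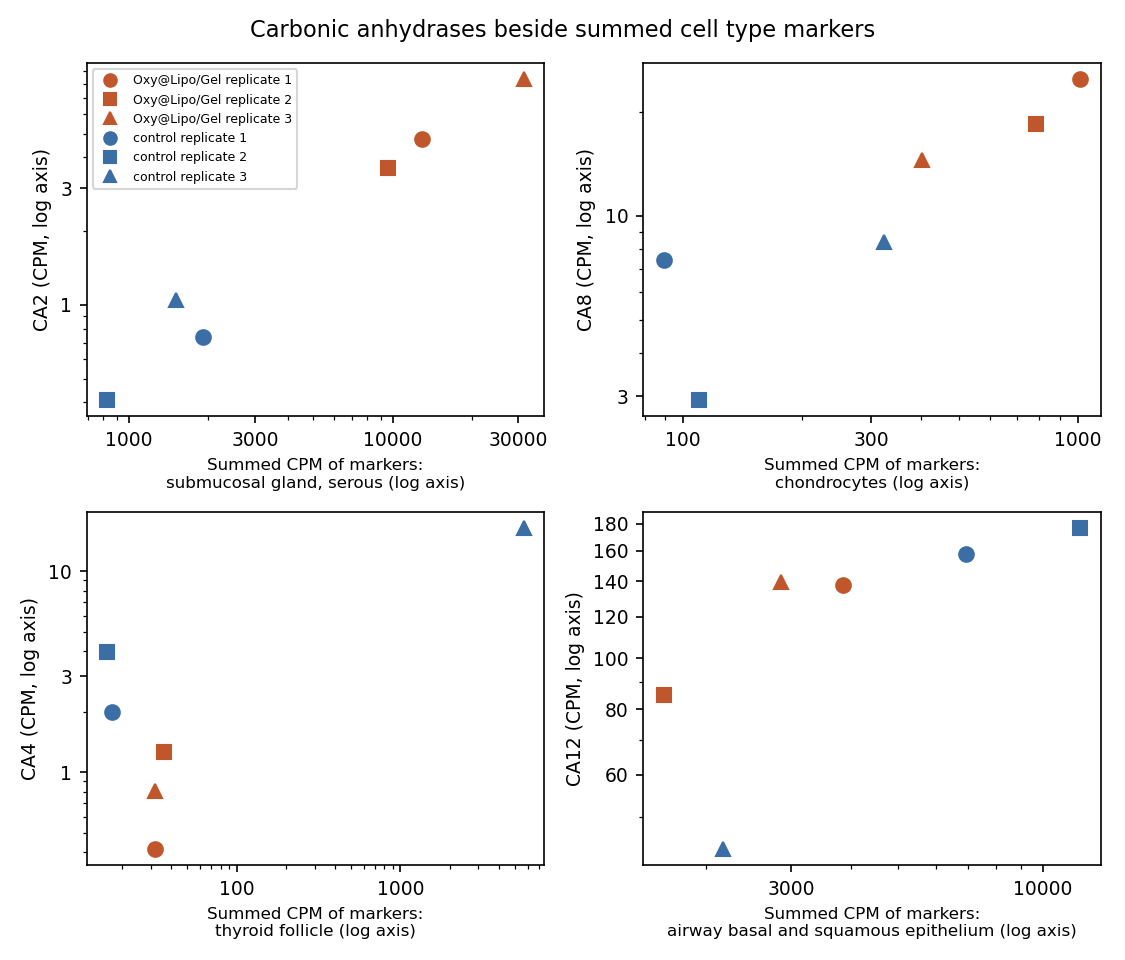
Level of CA2, CA8, CA4 and CA12 (y axes, CPM, logarithmic) beside the summed CPM of the marker list named on each x axis (logarithmic), with 1 point per library. CA2 and serous gland markers are high in all 3 Oxy@Lipo/Gel libraries, control replicate 3 is alone at 5665 CPM of thyroid markers, where CA4 is 16.5 CPM, and CA12 is lowest in control replicate 3, with 2165 CPM of basal markers. The pairs were chosen after the values were seen.

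CA14, a transmembrane enzyme with its active site outside the cell, was low and did not differ beyond its spread. It measured 0.166, 0.506 and 0.751 CPM in the Oxy@Lipo/Gel libraries, against 0.479, 0.543 and 0.333 CPM in the controls. The lowest and the highest value both came from the Oxy@Lipo/Gel group. Between groups the log2 difference was 0.057 ± 0.58 (SE; edgeR adjusted p = 0.961), and it was -0.41 without Oxy@Lipo/Gel replicate 3.

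CA6, the enzyme secreted in saliva and other gland fluids, did not follow the serous gland markers between groups. It measured 0.581, 1.56 and 3.27 CPM in Oxy@Lipo/Gel replicates 1, 2 and 3, against 3.79, 1.22 and 3.28 CPM in control replicates 1, 2 and 3. Control replicate 1 was the highest and Oxy@Lipo/Gel replicate 1 the lowest, and the groups overlapped widely. Within the controls CA6 had the order of the serous sum, which was 1902, 828 and 1501 CPM in replicates 1, 2 and 3. Oxy@Lipo/Gel replicate 3 was the highest of its group in both, while replicates 1 and 2 of that group differed in order. The part of gland content in the CA6 values was not tested. The log2 difference of CA6 was -0.64 ± 0.68 (SE; edgeR adjusted p = 0.608), and ran from -1.38 to -0.21 with 1 library left out. The cytosolic and the secreted enzyme associated with serous cells, CA2 and CA6, thus had fold changes of opposite sign, although the difference between them was not tested.

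**Figure D4:**
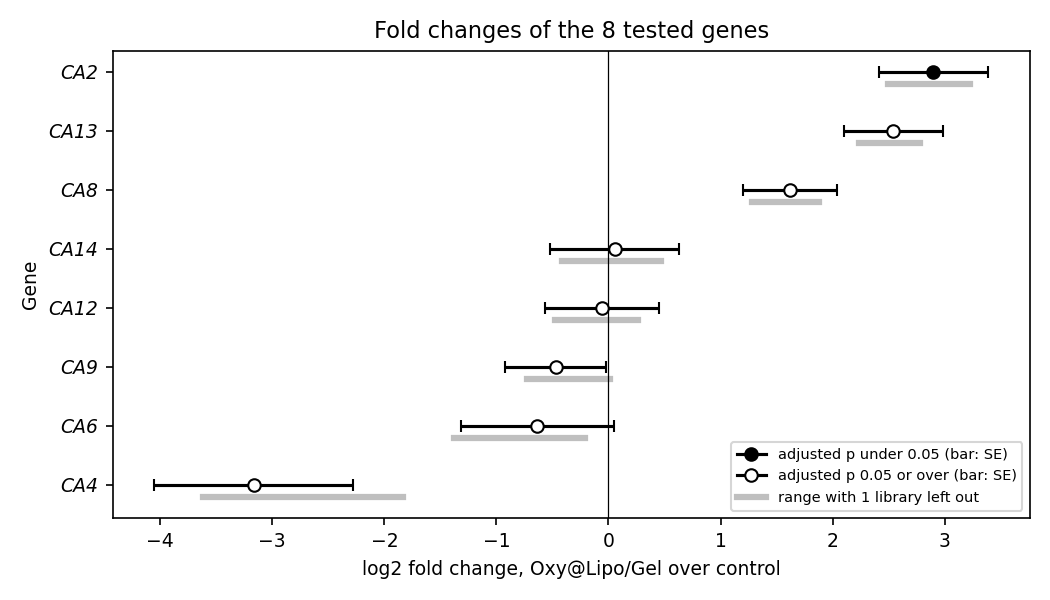
Log2 fold change of the 8 tested carbonic anhydrases, Oxy@Lipo/Gel over control (x axis), by gene (y axis). Points are edgeR estimates with bars of 1 SE, filled where the adjusted p is under 0.05, and grey bars span the values with each library left out in turn. CA2 alone is filled, and the grey bars of CA9, CA12 and CA14 cross 0.

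Among the other family genes, CA11 and CA7 differed most. CA11, another family protein without enzyme activity, measured 46.3, 37.1 and 31.0 CPM in the Oxy@Lipo/Gel libraries, against 67.0, 64.2 and 72.2 CPM in the controls. The controls lay close together, and each Oxy@Lipo/Gel library lay below them. A log2 fold change of -0.83 ± 0.18 did not pass (SE; edgeR adjusted p = 0.0780), while DESeq2 called it lower. CA7, a cytosolic enzyme known from neurons, had 39, 18 and 6 counts in the Oxy@Lipo/Gel libraries against 1, 0 and 2 in the controls. It was too low for the count filter, and the ratio of its summed counts was 18.6 with an exact 95% interval of 6.07 to 92.4 for counting error only. Without the filter its edgeR adjusted p was 0.0856. CA5B, a mitochondrial enzyme, measured 21.4 ± 2.38 CPM in the Oxy@Lipo/Gel group and 15.5 ± 3.39 CPM in the control group (SD, n = 3 each) and did not pass. The neuronal family protein CA10 had a log2 fold change of -0.053, and mitochondrial CA5A had 4 counts over the Oxy@Lipo/Gel group and 3 over the controls.

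Among transporters and channels that move bicarbonate, or belong to the same families, none passed. Of 18 listed genes 14 were tested, and edgeR called 0 (4 at an unadjusted p under 0.05), with a median log2 fold change of 0.092. DESeq2 called 3 higher, which were SLC4A8, SLC4A11 and ANO1. ANO1, a chloride channel of glands and smooth muscle that also passes bicarbonate, measured 32.3, 36.3 and 41.0 CPM in the Oxy@Lipo/Gel libraries, against 9.62, 4.62 and 16.2 CPM in the controls. It had the smallest p of the list (edgeR adjusted p = 0.0879) and no overlap. SLC4A8, a sodium-driven exchanger of chloride and bicarbonate, measured 17.8, 12.6 and 4.83 CPM in the Oxy@Lipo/Gel libraries, against 3.26, 0.543 and 3.19 CPM in the controls. SLC26A9, a chloride channel and exchanger of airway epithelium, had a log2 fold change of -1.77 and SLC4A11, a relative of SLC4A8, one of 1.14. CFTR, the chloride and bicarbonate channel, measured 5.15, 3.41 and 2.57 CPM in the Oxy@Lipo/Gel libraries, against 3.52, 0.679 and 4.09 CPM in the controls, with overlap.

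Carriers of protons and lactate did not pass either. Of 18 genes found, 17 were tested and edgeR called 0 (3 at an unadjusted p under 0.05), with a median log2 fold change of 0.013, and DESeq2 called 1 lower. SLC16A7, a monocarboxylate carrier, and HVCN1, a voltage-gated proton channel, had log2 fold changes of -0.73 and 0.69 and groups that did not overlap. ATP12A, the proton pump of the airway surface, measured 265, 220 and 246 CPM in the Oxy@Lipo/Gel libraries and 285, 16.4 and 229 CPM in the controls, with control replicate 2 far below the rest.

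Hypoxia-response genes, the group to which CA9 belongs, had a median log2 fold change of -0.45, where all tested genes had -0.04. Of 17 tested, edgeR called 0 (7 at an unadjusted p under 0.05), and DESeq2 called 1 higher and 4 lower. VEGFA, the vascular growth factor, measured 129, 102 and 134 CPM in the Oxy@Lipo/Gel libraries, against 194, 470 and 320 CPM in the controls (edgeR adjusted p = 0.0934). EPAS1, which encodes the factor HIF-2alpha, had a log2 fold change of -1.94 and EGLN3, a prolyl hydroxylase, one of 1.93. As with CA9, control replicate 2 had the highest VEGFA and EPAS1 of the 6 libraries, EPAS1 at 6183 CPM. Oestrogen-response genes, listed because CA12 is such a gene in breast, had a median of -0.034 over 7 tested, with 0 called by edgeR (1 at an unadjusted p under 0.05) and 1, GREB1, lower by DESeq2.

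**Figure D5:**
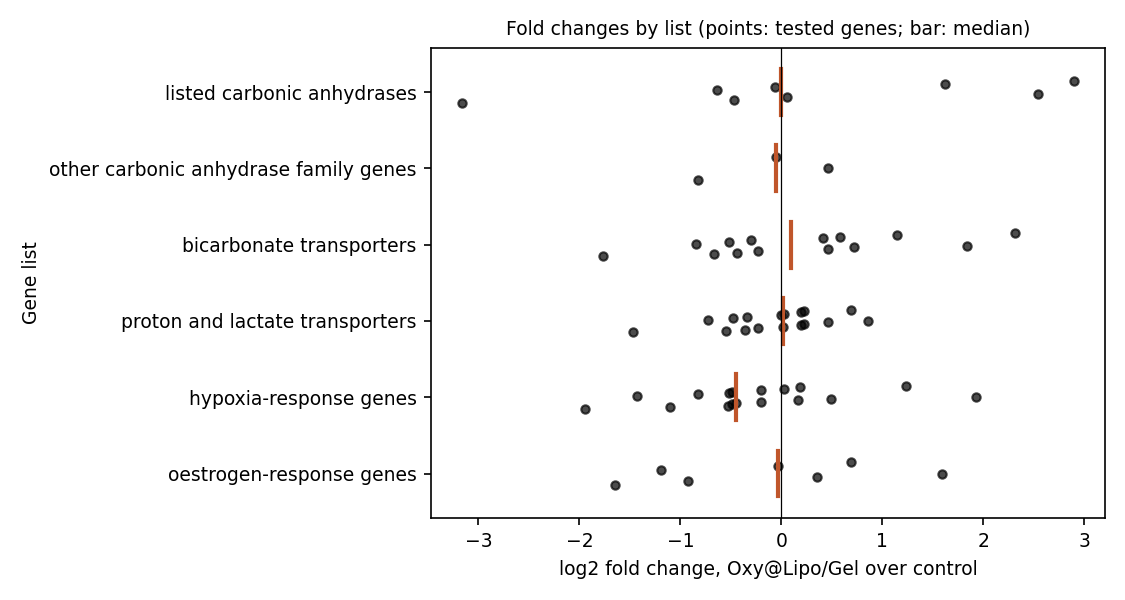
Log2 fold change, Oxy@Lipo/Gel over control (x axis), of the tested genes of each list (y axis), with a bar at each list's median. The 8 tested carbonic anhydrases spread from -3.17 for CA4 to 2.90 for CA2 around a median of -0.0018, and the hypoxia-response list has its median at -0.45.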

How the data were processed

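The authors deposited whole-number counts per gene and, in a further table, FPKM values, for 6 poly(A)-selected, strand-specific, paired-end libraries per the labels' protocols. The aligner, the counter and their settings: not given in the sources used here. The submitters' processing notes name the builds GRCm38, rheMac8 and Mmul_8.0.1 without a role. Among the 17796 genes counted at least 5 times per library, 17796 gave 1 whole gene length (within 0.01 base) from count, FPKM and library total, so FPKM is no independent measurement. Counts were compared with edgeR 4.0.16 in R 4.3.3 (quasi-likelihood F test, TMM, filterByExpr with a count of 10 and a total of 15, group as the only term), Benjamini-Hochberg adjusted over 18676 genes at 0.05. SE is the log2 fold change over the square root of F. CPM uses TMM library sizes. FPKM uses plain totals.

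Alternatives were median-of-ratios size factors, no count filter, DESeq2 1.42.0, limma 3.58.1 on log2(FPKM + 1), filtered or not, or with 0.1 in place of 1, a replicate block, and each library left out. The edgeR code was run on simulated counts with known changes. These held no tissue differences between libraries, so that run does not bear on the calls given here. Figures used Python 3.11.15 and matplotlib 3.10.9. The genes, lists and rules were chosen with earlier results of these data known. All 10 carbonic anhydrases are named, and of each pathway list up to 4 genes with the smallest p; CFTR, ATP12A, EGLN3 and the marker pairs were picked with their values in view. Some listed genes are not reported here by name. Replicates differed by more than counting noise, with a chi-square of at least 46.2 for each degree of freedom.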

Additional observations from a re-analysis of the deposited data

How the results depend on the processing

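CA2, CA13, CA8, CA4 and CA6 kept their direction in every alternative run, and the calls did not. The number of carbonic anhydrases called higher was 1 in edgeR, and 0 with median-of-ratios size factors, with log2(FPKM + 1) with or without the filter, and with the replicate block. It was 1 with no count filter and with log2(FPKM + 0.1), and 3 in DESeq2, which also called 1 lower. With a library left out it was 0 to 1, the 1 being CA13. Over all genes edgeR called 287, against 2492 in DESeq2, 125 with log2(FPKM + 1) and no filter, 0 with the replicate block and 0 to 628 with a library left out (139 when control replicate 2 was dropped, 628 and 20 for Oxy@Lipo/Gel replicates 1 and 3, and 0 for each of the others, with 2271 to 4858 genes at an unadjusted p under 0.05). With the block 2866 genes had an unadjusted p under 0.05. Same-numbered libraries deviated together with correlations of 0.23, -0.35 and -0.16, so the numbers are not taken as pairs.

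Small fold changes changed sign. CA12 had -0.061 in edgeR and 0.12 with the replicate block, 0.17 with log2(FPKM + 1) with or without the filter, 0.18 with log2(FPKM + 0.1) and -0.48 to 0.26 with a library left out. CA14 had 0.057 in edgeR, -0.033 with log2(FPKM + 0.1), -0.076 with the replicate block and -0.41 to 0.47 with a library left out (without Oxy@Lipo/Gel replicate 2 it was not tested). CA9 ran from -0.73 to 0.013 with a library left out. The log2(FPKM + 1) scale compresses low genes, and CA13 had 0.12 there. The causes were not tested. Depth limits CA1 and CA3, with 5 and 9 counts in all.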
